A study of Rattus norvegicus with 6 samples.

Results

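The genes of endoplasmic reticulum (ER) stress and of the integrated stress response described here are Eif2ak3, Ddit3, Trib3, Nupr1, Xbp1, Hspa5, Hsp90b1, Pdia4, Calr and Canx, 10 genes chosen by name. Every probe set was taken whose single gene symbol in the platform's annotation is one of these names. This gave 21 probe sets of 9 genes, among 8740 probe sets and 4736 gene symbols measured on the array, and the level of Xbp1, which no probe set has as its single symbol, was not analysed here. Of the 21 probe sets, 20 passed the filter on dim signals and were tested, and the other, 1 of 2 for Eif2ak3, is given by its values only.

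RNA from livers of male Sprague Dawley rats was hybridised to Affymetrix rat expression arrays, in 2 diet groups with 3 samples each. The NASH group, named for nonalcoholic steatohepatitis, received a liquid diet with 70% corn oil at 220 kcal per unit of metabolic body mass and day, and the Control group one with 5% corn oil at 187 kcal. Both were fed for 3 weeks by total enteral nutrition, in which liquid food is delivered directly to the gut, so the groups differ in both fat and energy. The sources used here state neither the age nor whether RNA of several animals was pooled. They do not say that the samples of a group came from separate animals, and the p-values below then speak only of the spread among these samples, part of which may be technical.

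The ER folds secreted and membrane proteins, a heavy task for hepatocytes, which make most plasma proteins. When unfolded protein builds up, the chaperone Hspa5 (BiP) leaves the sensors Eif2ak3 (PERK), Ern1 (IRE1) and Atf6. Eif2ak3 then phosphorylates the initiation factor eIF2, which lowers protein synthesis and favours the factor Atf4 and its targets Ddit3, Trib3 and Nupr1, while Atf6 and spliced Xbp1 raise chaperone genes. Other kinases of eIF2 answer to amino acid lack, heme lack or viral RNA, and together these inputs make the integrated stress response. Fatty liver is often studied for signs of this response.

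The promoters of these genes are shown for the response elements they hold. The ER stress response element, bound by NF-Y and Atf6, was searched as CCAAT, 9 free bases and CCACG on both strands of 300 bases per gene, 250 before and 50 after the gene's start, in RefSeq sequences of rat build GRCr8, where all 10 genes matched by symbol. It was found in 5 of the 10 promoters (Hspa5, Hsp90b1, Calr, Canx and Xbp1) and in 22 of all 33469 promoters, or 0.0657%. Below, the sites read 5′ to 3′ on the strand that holds the motif, with its fixed letters in capitals.
Hspa5: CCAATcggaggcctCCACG
Hsp90b1, distal site: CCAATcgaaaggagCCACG
Hsp90b1, proximal site: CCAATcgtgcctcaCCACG
Calr: CCAATcagggtcgaCCACG
Canx: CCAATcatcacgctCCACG
Xbp1: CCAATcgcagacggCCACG

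With the first base of the gene counted as 0, the element lies at −43 to −25 in Hspa5, at −176 to −158 and −72 to −54 in Hsp90b1, at −232 to −214 in Calr, at −230 to −212 in Canx and at −65 to −47 in Xbp1. The exact letters were not found in this window of the other 5 genes. The C/EBP-ATF response element, through which Atf4 acts, was searched as TGATGNAAN on both strands and was found in 2 of the 10 promoters, Nupr1 and Trib3, and in 3.97% of all promoters. Its site lies at −56 to −48 in Nupr1 and at −22 to −14 in Trib3. No promoter of the 10 held both elements, and those of Pdia4, Ddit3 and Eif2ak3 held neither set of letters. CCAAT, which is part of the first element, occurs by itself or within it in 37.5% of all promoters. A match of letters is a description of the sequence and was not tested for binding. The whole windows of Hspa5 (chr3:38452766-38453065, + strand, GRCr8) and Nupr1 (chr1:190645852-190646151, − strand, GRCr8) follow 5′ to 3′ on the gene's strand, with the fixed letters of either element in capitals.
Hspa5 promoter: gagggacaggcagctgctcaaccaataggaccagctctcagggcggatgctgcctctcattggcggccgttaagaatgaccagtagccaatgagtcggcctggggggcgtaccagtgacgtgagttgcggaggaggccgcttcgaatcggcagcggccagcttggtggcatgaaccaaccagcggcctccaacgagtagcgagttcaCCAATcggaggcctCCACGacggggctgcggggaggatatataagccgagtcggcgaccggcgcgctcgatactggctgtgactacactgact
Nupr1 promoter: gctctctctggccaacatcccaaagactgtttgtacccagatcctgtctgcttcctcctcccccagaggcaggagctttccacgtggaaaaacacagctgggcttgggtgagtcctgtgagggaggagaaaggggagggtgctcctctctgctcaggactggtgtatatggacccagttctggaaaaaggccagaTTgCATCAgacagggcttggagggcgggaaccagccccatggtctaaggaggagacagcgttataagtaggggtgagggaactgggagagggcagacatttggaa

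The arrays differed in some general measures. Hepatocyte markers were well measured, with 11 of 11 measured members above the filter. Their summed normalized signals were 38454 to 40334 in NASH and 38593 to 41129 in Control. Normalization between arrays holds the brightest transcripts near common values, so near-equal sums were largely fixed in advance. Among the single markers, F10 (476 to 1068 in NASH, 1142 to 1623 in Control) and Ambp (3103 to 3844, 3996 to 4434) stood apart lower in NASH. None stood apart higher. F10 and Otc were lowest in NASH 2, at 476 and 550. NASH 2 stood apart by transcripts of fat and skeletal muscle. The summed signal of 7 fat cell markers was 3534 in NASH 2, 461 in NASH 1, 554 in NASH 3 and 438 to 448 in Control, and that of 7 skeletal muscle markers was 2265 in NASH 2 and 74.7 to 120 elsewhere. The signal at the 3′ end over that at the 5′ end, a measure of RNA integrity, was highest in Control 3, at 5.07 for actin (2.15 to 2.93 elsewhere) and 2.04 for Gapdh (1.08 to 1.29 elsewhere). The summed signal of 8 exocrine pancreas markers, which tissue next to the liver could bring, was 373 to 429 in NASH and 488 to 563 in Control (exact permutation p = 0.1, two-sided, the smallest that 3 against 3 arrays allow). Its sum was mostly amylase (Amy2a3), and the defining markers Prss1, Cpa1, Ctrb1 and Cel lay below the filter. Leukocyte sums were 262 to 582 in NASH and 256 to 422 in Control, macrophage sums 591 to 973 and 562 to 1034, and stellate cell sums 228 to 849 and 289 to 504. The 1 plasma cell marker measured had 108 to 166 in NASH and 99.9 to 131 in Control. In such bulk samples, fewer cells of a type and less RNA per cell cannot be told apart.

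The comparison of NASH with Control asks whether stress genes of the ER differed in livers on the 70% corn oil diet, which is rich in polyunsaturated fat. No probe set of these genes passed the test. The signalling genes Nupr1, Eif2ak3 and Trib3 had the largest differences, all toward lower signal in NASH. Ddit3 and the chaperones differed by no more than 0.47 in either direction, from −0.47 to 0.31, on the log2 scale. The Trib3 differences, −0.50 and −0.48, were barely larger than the −0.47 of the chaperone probe set Hsp90b1 S69316_s_at. Differences are NASH minus Control on the scale of log2(normalized signal + 2.21), which understates the change of dim probe sets, and each was tested with limma with Benjamini-Hochberg adjustment over all 5244 probe sets tested. Of the 20 member probe sets 0 were called at an adjusted p under 0.05, against 0.133% of all probe sets tested (0.0953% higher and 0.0381% lower in NASH). At an unadjusted p under 0.05, 2 member probe sets were lower (Nupr1 and Eif2ak3) and 0 higher, where all probe sets tested gave 7.86%, of which 4.04% lower and 3.81% higher. Over the 20 probe sets 13 were lower and 7 higher in NASH, with a median of −0.18, while all probe sets tested had 52.9% lower and a median of −0.02. With the signals as deposited, which moved the median of all probe sets tested to −0.17, 16 of the 20 were lower. The groups did not overlap for 3 of the 20, all lower in NASH, or 15%, against 7.76% of all probe sets tested that stood apart lower and 6.54% higher (14.3% in all).

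**Figure D1:**
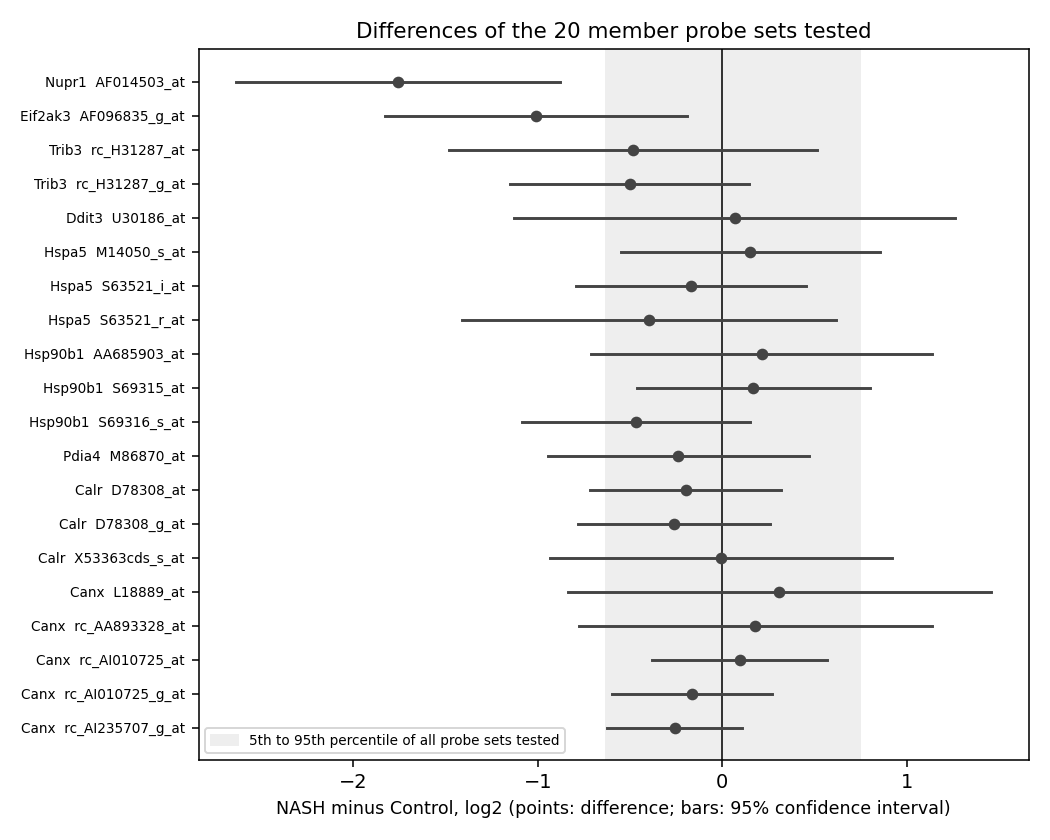
Differences of the 20 tested probe sets, NASH minus Control on the log2 scale, with 95% confidence intervals from limma as bars. The grey band spans the 5th to 95th percentile of all probe sets tested. The intervals of Nupr1 and Eif2ak3 lie below 0 and those of the other 18 probe sets cross it.

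Nupr1, a small chromatin-bound stress protein also called p8, had the largest difference of the group. Its deposited signals were 112, 41.6 and 31.0 in NASH 1, 2 and 3, against 306, 141 and 196 in Control 1, 2 and 3. All 3 NASH arrays lay below all 3 Control arrays, with NASH 1 nearest to them. On the normalized log2 scale the NASH mean was 5.84 ± 0.74 and the Control mean 7.60 ± 0.34 (SD, n = 3 each). The difference was −1.76 ± 0.38 (standard error), a 3.38-fold lower signal in NASH, with a 95% confidence interval of −2.63 to −0.88. Its limma p-value was 0.00174 before and 0.226 after adjustment over all probe sets, so that it did not pass. Leaving out 1 array at a time gave differences from −2.19 to −1.52. Wash records of the instrument were filled for 4 arrays and blank for Control 2 and NASH 3. The Nupr1 difference was −1.73 among the filled ones, 2 against 2, and −1.81 between the blank ones, 1 against 1. Summed fat cell markers were higher and summed exocrine pancreas markers lower in all 3 NASH arrays, as given above. The fat cell sum of NASH 1 was close to Control (461 against 438 to 448). Outside NASH 2 its largest part was Lep, at 270 in NASH 1 and 241 to 288 in Control. Fabp4 and Plin1 lay below the filter, which uses the mean over all arrays, though Fabp4 was 1126 in NASH 2 and 1.03 to 3.15 elsewhere. The part of either sum in the Nupr1 and Eif2ak3 differences was not tested.

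Eif2ak3, the ER-resident kinase of eIF2, had low signals on both of its probe sets. The brighter one, AF096835_g_at, had deposited signals of 30.0, 11.1 and 15.4 in NASH 1, 2 and 3, against 46.9, 34.4 and 44.3 in Control 1, 2 and 3. The dimmer one, AF096835_at, had 9.25, 6.68 and 7.57 in NASH, against 16.5, 14.0 and 11.4 in Control. On both probe sets all NASH arrays lay below all Control arrays, and NASH 2 was lowest. Normalized log2 means of the brighter one were 4.35 ± 0.67 in NASH and 5.36 ± 0.25 in Control (SD, n = 3 each). The difference was −1.01 ± 0.35 (2.02-fold lower in NASH, 95% confidence interval −1.83 to −0.19), with a limma p of 0.0216 before and 0.550 after adjustment. It was −0.64 without NASH 2, whose fat and muscle markers were high. Within the filled wash records it was −1.23, and between the blank ones −0.57. The dimmer probe set lay below the filter, with log2 means of 3.38 in NASH and 3.95 in Control, and has no test.

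Trib3, a pseudokinase that binds Akt and dampens Atf4 activity, was also dim on its 2 probe sets. With rc_H31287_g_at the deposited signals were 18.9, 18.3 and 10.9 in NASH 1, 2 and 3, against 20.8, 35.0 and 20.5 in Control 1, 2 and 3. The normalized values of that probe set did not overlap, at 4.07 to 4.31 in NASH and 4.36 to 5.11 in Control, but NASH 1 and Control 1 were close. The log2 difference was −0.50 ± 0.28 (limma adjusted p = 0.652), and −0.30 without Control 2. With rc_H31287_at the groups overlapped, and the difference of −0.48 ± 0.43 (limma adjusted p = 0.791) rested on Control 3, which had a deposited signal of 33.0, against 8.22 to 17.3 in the other 5 arrays. Without Control 3 it was −0.05.

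Ddit3 (CHOP), the transcription factor that links lasting ER stress to cell death, did not separate the diets. Its deposited signals were 19.0, 28.9 and 16.5 in NASH 1, 2 and 3, against 37.0, 8.95 and 33.5 in Control 1, 2 and 3. The 3 NASH arrays lay between a low Control 2 and the other Control arrays. The log2 difference was 0.07 ± 0.52 (95% confidence interval −1.13 to 1.27, limma adjusted p = 0.981), an interval wide enough to hold changes of 2-fold in either direction. Without Control 2 the difference turned to −0.57, without NASH 2 to −0.06, and with the signals as deposited, without scaling between arrays, to −0.11.

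**Figure D2:**
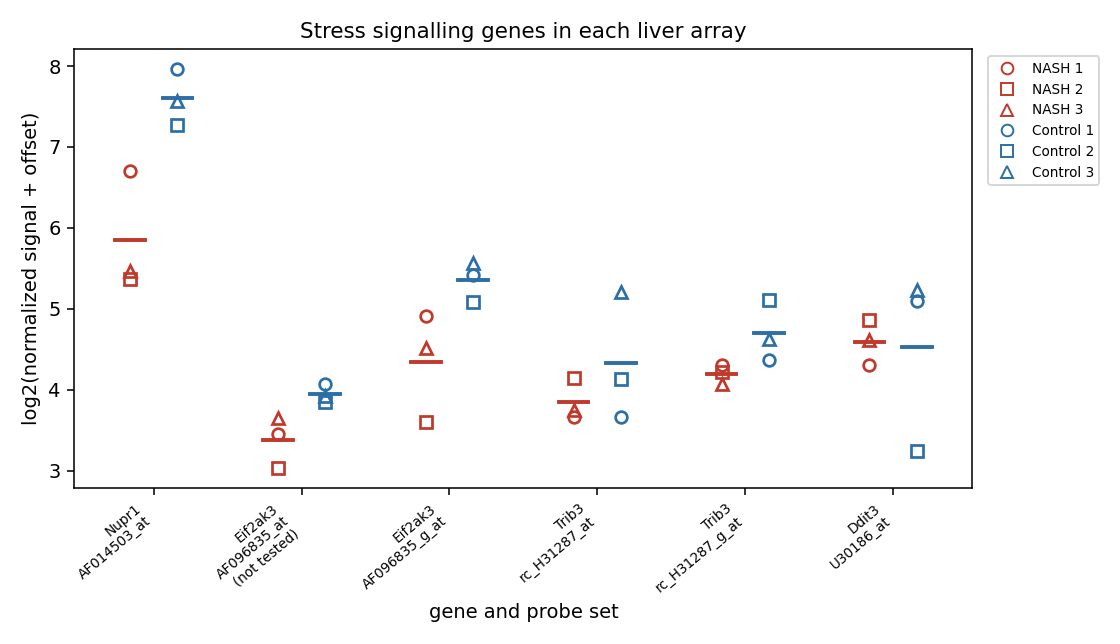
Log2 normalized signals of the 4 signalling genes by probe set, NASH left of Control, with a symbol for each array and a bar at the group mean. The NASH arrays lie below all Control arrays for Nupr1, for both Eif2ak3 probe sets and for Trib3 rc_H31287_g_at, and Ddit3 is lowest in Control 2.

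None of the chaperone probe sets separated the diets. Their 15 probe sets had 9 lower and 6 higher differences, from −0.47 to 0.31, with limma adjusted p-values from 0.663 to 0.998, and the groups overlapped for all 15. Hspa5, the Hsp70 of the ER lumen, had deposited signals on M14050_s_at of 1129, 1354 and 802 in NASH 1, 2 and 3, against 1493, 588 and 1529 in Control 1, 2 and 3. Control 2 was the lowest array, and it stayed so after normalization, with 9.37 on the log2 scale against 9.97 to 10.56 in the other 5. The log2 difference was 0.15 ± 0.30 (95% confidence interval −0.55 to 0.85), and −0.17 on S63521_i_at and −0.39 on S63521_r_at. It turned to −0.17 without Control 2, −0.04 without NASH 2 and −0.04 with the signals as deposited.

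Hsp90b1 (Grp94), the Hsp90 of the ER lumen, gave opposite signs by probe set. Deposited signals of its brightest one, S69316_s_at, were 494, 468 and 353 in NASH 1, 2 and 3, against 811, 384 and 927 in Control 1, 2 and 3. Control 2 again lay among the NASH arrays. The log2 difference was −0.47 ± 0.27 there (limma adjusted p = 0.663), and 0.21 on AA685903_at and 0.17 on S69315_at. On S69316_s_at it was −0.74 without Control 2 and −0.21 without Control 3. Pdia4 (ERp72), a disulfide isomerase with KDEL-type retention, had deposited signals of 393, 240 and 159 in NASH 1, 2 and 3, against 514, 188 and 328 in Control 1, 2 and 3. Its log2 difference was −0.24 ± 0.31 (limma adjusted p = 0.859), −0.01 without Control 1 and −0.50 without Control 2.

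Calr and Canx, the soluble and the membrane-bound lectin chaperones of glycoproteins, overlapped between the diets on every probe set. The brightest Calr probe set, D78308_at, had deposited signals of 915, 1080 and 591 in NASH 1, 2 and 3, against 1279, 796 and 1291 in Control 1, 2 and 3. Its log2 difference was −0.20 ± 0.22, and those of the other Calr probe sets were −0.26 (D78308_g_at) and −0.01. With 1 array left out, D78308_at ran from −0.41 (without NASH 2) to −0.07 (without Control 3) and D78308_g_at from −0.43 (without NASH 2) to −0.13 (without NASH 3). The brightest Canx probe set, rc_AI235707_g_at, had 816, 644 and 616 in NASH 1, 2 and 3, against 1239, 680 and 951 in Control 1, 2 and 3. Its log2 difference was −0.26 ± 0.16 with the narrowest interval of the 20 member probe sets (−0.63 to 0.11), which leaves out a 2-fold difference in either direction on this probe set. The other 4 Canx probe sets had differences from −0.17 to 0.31.

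The chaperones moved by array within each diet. With the brightest probe set of each of the 5 chaperones centred on its mean over the 6 arrays, the median was −0.19, −0.08 and −0.30 in NASH 1, 2 and 3, against 0.23, −0.30 and 0.35 in Control 1, 2 and 3. In Control 2 all 5 lay below their means (−0.72 to −0.07), as they did in NASH 3 (−0.46 to −0.03). In Control 3 all 5 lay above (0.20 to 0.74), as they did in Control 1 (0.06 to 0.57). By these medians Control 2 was about as low as NASH 3, while the other Control arrays lay above all NASH arrays. Dimmer probe sets of these genes did not all follow. In Control 2 they ran from −0.78 (Hspa5 S63521_r_at) to 0.30 (Calr X53363cds_s_at), and in Control 3 from −1.37 (Canx L18889_at) to 1.11 (Hspa5 S63521_r_at). Control 2 had the lowest Control median and NASH 2 the highest NASH median, so leaving both out widens the gap between these medians by construction. Without them the median difference of the 20 member probe sets was −0.42, with 16 lower, which is therefore a description only. The median of all probe sets tested was −0.02 in that run.

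Some probe sets of 1 gene parted in Control 3, the array with the highest 3′ to 5′ control ratios. Within arrays, the log2 signal of Hsp90b1 AA685903_at minus that of S69316_s_at was −1.27 to −0.83 in the other 5 arrays and −3.22 in Control 3. The same difference for Canx, L18889_at minus rc_AI235707_g_at, was −3.25 to −2.52 in the other arrays and −4.75 in Control 3. For Calr, X53363cds_s_at minus D78308_at, it was −2.10 to −1.47 in the others and −3.20 in Control 3. Hsp90b1 S69315_at and Canx rc_AA893328_at showed the same gap, at −2.89 and −4.17 in Control 3. Trib3 rc_H31287_at minus rc_H31287_g_at went the other way, at 0.58 in Control 3 and −0.97 to −0.06 elsewhere. So did Hspa5 S63521_r_at minus M14050_s_at, at −4.08 in Control 3 and −5.70 to −4.61 elsewhere, lowest in NASH 2. The gaps of Hspa5 S63521_i_at, Calr D78308_g_at and Canx rc_AI010725_at and rc_AI010725_g_at lay in or near the range of the other arrays. Where in the transcripts these probe sets lie is not given in the files, and the part of the 3′ to 5′ ratio in these gaps was not tested. Without Control 3 the differences between diets were −0.27 for AA685903_at and −0.07 for S69315_at of Hsp90b1, −0.29 for L18889_at and −0.32 for rc_AA893328_at of Canx, and −0.44 for X53363cds_s_at of Calr. The positive signs of 4 of these 5 in the full comparison therefore rested on that array. So did the negative signs of Hspa5 S63521_i_at and S63521_r_at, which were 0.10 and 0.059 without Control 3.

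**Figure D3:**
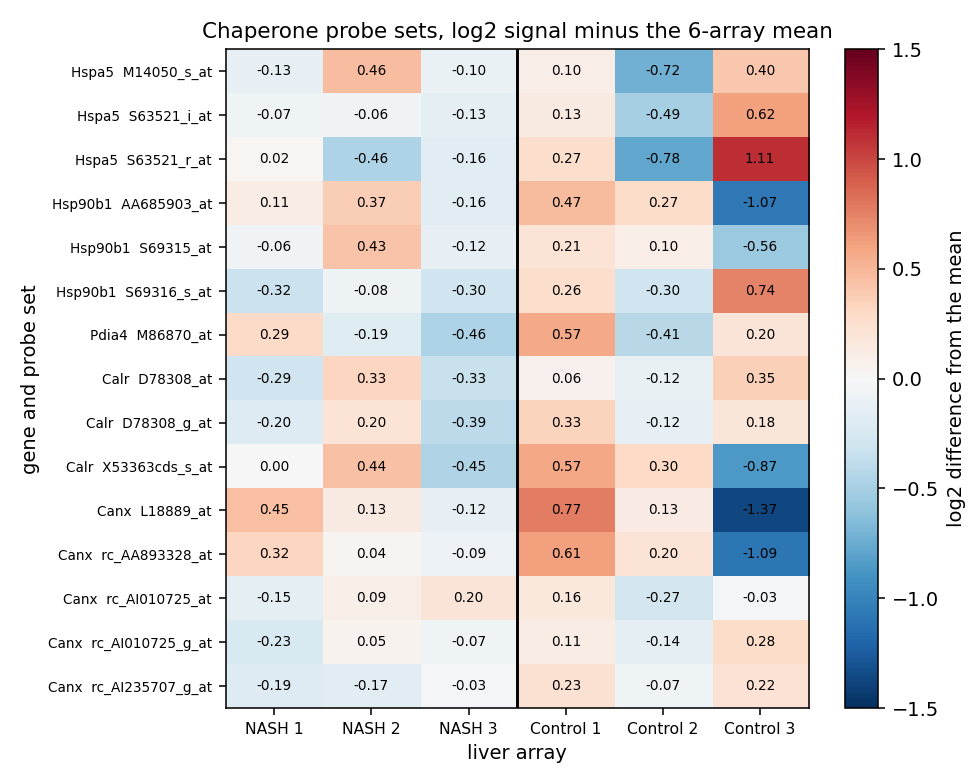
Log2 signals of the 15 chaperone probe sets minus their mean over the 6 arrays, with NASH arrays left of the line and Control arrays right of it. Control 3 holds both the highest values, up to 1.11 for Hspa5 S63521_r_at, and the lowest, down to −1.37 for Canx L18889_at, and probe sets of Hspa5 are lowest in Control 2.

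The 5 probe sets whose pattern over the 6 arrays was most like that of Hspa5 M14050_s_at, among 4296 with a single symbol, belonged to Rbck1, Cnp, Sec31a, Tomm6 and Hnrnpa1. Pearson's r lay between 0.97 and 0.99 over the 6 arrays, which differ in overall signal and in 3′ to 5′ ratio as given above, and is a description only. No other member of the group was among these 5. Sec31a is a coat protein of the vesicles that leave the ER.

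Other genes of these pathways, in 5 lists, did not pass the test either, with 0 of 59 measured genes called in either direction by limma over all probe sets. At an unadjusted p under 0.05, 5 of 59 were lower and 0 higher, or 8.47% lower where all probe sets tested gave 4.04%. Groups stood apart for 7 of 59, all lower in NASH, or 11.9% against 7.76%. Of the 59 genes 42 were lower and 17 higher, with a median difference of −0.15. All probe sets tested had 52.9% lower and a median of −0.02, to be set beside the list counts below as well. With the signals as deposited 48 of the 59 were lower, but the median of all probe sets tested was then −0.17. The count lower was 39 without Control 3. It was 49 without both Control 2 and NASH 2, the arrays with the lowest Control and highest NASH chaperone medians.

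Targets and kinases of the integrated stress response showed no common direction. Of 17 tested genes 9 were higher and 8 lower, with a median of 0.07, and 0 had an unadjusted limma p under 0.05. The 4 with the smallest p were the growth factor Vegfa at −0.33, cystathionine gamma-lyase Cth at 0.40, the transcription factor Cebpg at 0.46 and the double-stranded RNA-activated kinase of eIF2, Eif2ak2, at −0.28 (limma adjusted p from 0.711 to 0.791). With 1 array left out, Cth ran from 0.03 (without Control 3) to 0.62 (without Control 1) and Cebpg from 0.07 (without Control 2) to 0.74 (without Control 1). Vegfa ran from −0.50 (without NASH 1) to −0.21 (without NASH 3) and Eif2ak2 from −0.53 (without Control 2) to −0.10 (without Control 3). Of the other sensors and factors only Nfyb, Nfyc and Mbtps2 were measured above the filter. Nfyb and Nfyc are subunits of NF-Y, the factor that binds CCAAT, and differed by −0.25 and −0.01, and Mbtps2, a protease that releases Atf6, by −0.09. Nfyb ran from −0.49 (without Control 3) to −0.07 (without NASH 3).

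Other chaperones and folding enzymes of the ER were lower in NASH for 14 of 18 measured genes, with a median of −0.29 and 0 called. The differences ran from −0.60 to 0.52. Of the 4 higher genes, Serpinh1 was at 0.52 (limma adjusted p = 0.637) and Hyou1 at 0.28 (limma adjusted p = 0.853), both named here after their values were seen. The cyclophilin Ppib had normalized log2 values of 8.68, 8.86 and 8.56 in NASH 1, 2 and 3, against 9.24, 9.26 and 9.39 in Control 1, 2 and 3. The 2 groups lay apart, with little spread in either. Its difference was −0.60 ± 0.17 (1.51-fold lower, limma adjusted p = 0.443), and leaving out 1 array at a time gave −0.67 to −0.53. The oxidase Ero1b, whose promoter also holds the ER stress response element, differed by −0.51 ± 0.20 (limma adjusted p = 0.582), with the groups apart. The calcium-binding Calu differed by −0.53 and the lumenal Erp29 by −0.58, both with overlapping groups, and by −0.34 and −0.31 without Control 3.

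Genes of translocation, glycosylation and degradation at the ER were lower for 11 of 13, with a median of −0.15 and 0 called. The median was −0.06 without Control 1 and −0.41 without Control 2, and the count lower ran from 9 (without Control 3) to 12 (without Control 2) with 1 array left out. Rpn2, a subunit of the oligosaccharyltransferase, had normalized log2 values of 7.85, 7.59 and 7.69 in NASH 1, 2 and 3, against 8.19, 8.32 and 8.45 in Control 1, 2 and 3. Ssr4, of the translocon-associated complex, had 8.59, 8.65 and 8.49 in NASH, against 9.06, 9.07 and 9.10 in Control. Both genes separated the diets in every array. The differences were −0.61 ± 0.19 for Rpn2 and −0.50 ± 0.16 for Ssr4 (limma adjusted p = 0.462 and 0.500). Ddost, another subunit of the oligosaccharyltransferase, differed by −0.69 with overlapping groups (−0.39 without Control 3), and Sec61b, of the translocation channel, by −0.40 with groups apart. Fkbp2 and Ssr3, named here after their values were seen, were the others of the 7 whose groups stood apart. The summed exocrine pancreas signal, most of it amylase, was lower in NASH as given above. Of its markers above the filter, Amy2a3 (227 to 301 in NASH, 321 to 420 in Control) and Cela1 (33.8 to 40.9, 49.9 to 58.8) stood apart. Cela2a and Pnlip overlapped between the diets. The part of this pancreas signal in the differences above was not tested.

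Genes that link ER stress to cell death were lower for 6 of 8, with a median of −0.17 and 0 called. The calpain Capn1 differed by −0.84 ± 0.37 (limma adjusted p = 0.620), the calpain Capn2 by −0.24, the survival factor Bcl2 by −0.28 and the ER membrane protein Tmbim6 by −0.14. Leaving out 1 array brought Capn2 to −0.10 (without Control 2), Bcl2 to −0.17 (without NASH 3) and Tmbim6 to −0.06 (without Control 1), and farther from 0 brought Capn2 to −0.41 (without Control 1). Capn1 overlapped between the diets, with 3.91 to 4.82 in NASH and 4.61 to 5.73 in Control on the log2 scale.

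**Figure D4:**
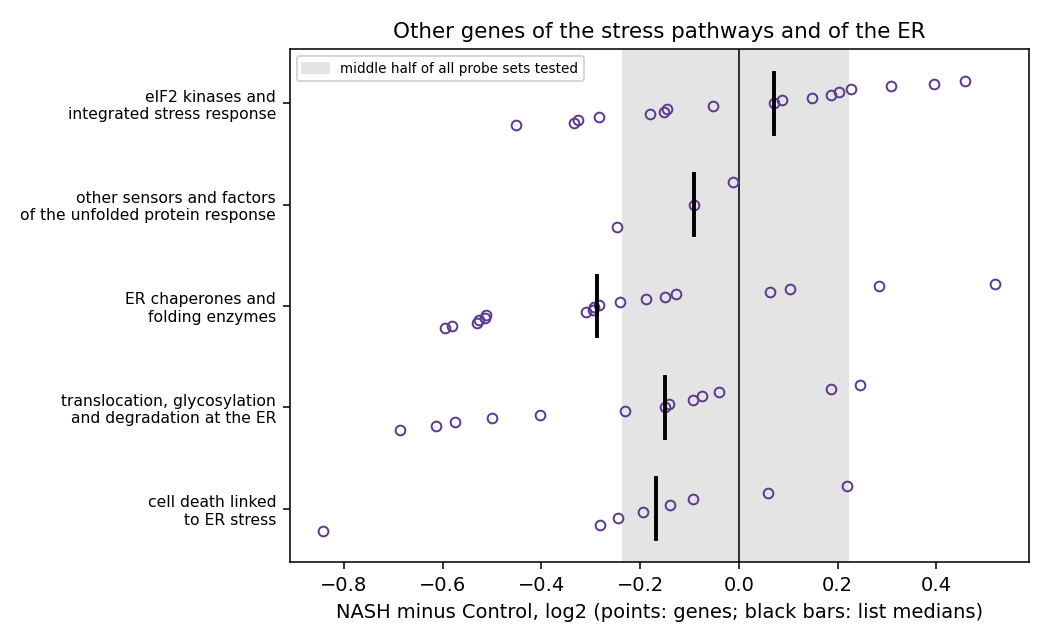
Differences of 59 other genes of the stress pathways and of the ER, NASH minus Control on the log2 scale, 1 point per gene by its brightest probe set, with list medians as black bars. The grey band is the interquartile range of all probe sets tested. The list of other ER chaperones has its median at −0.29 and that of the integrated stress response at 0.07.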

How the data were processed

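The authors deposited MAS5 intensities on a linear scale, per the submitters' processing notes. The sources used here give neither the version nor the scaling target. Instrument records hold other information (array type, tissue, washing and scanning), per the file headers. Groups came from sample titles. Trimmed mean signals (2% trimmed) were 73.6 to 117, so log2 signals were quantile normalized between arrays. An offset of 2.21, the 10th percentile of all values, was added before log2. Array controls (59) were left out, and probe sets with a mean log2 above the 40th percentile (3.92) were tested, 5244 of 8740. NASH and Control were compared with limma 3.58.1 (R 4.3.3), lmFit and eBayes with an intensity trend, without covariates, at a Benjamini-Hochberg adjusted p under 0.05. Symbols came from the platform's annotation, which gave 1 symbol for 7006 probe sets, several for 308 and none for 1426. Where a gene had several probe sets, counts over genes used the brightest. The test was tried on simulated data. The number of arrays, 3 per group, limits the precision.

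Named are all probe sets of the members, up to 4 genes of each pathway list with the smallest p, and the 5 genes most like Hspa5. Some further list genes and single markers were named after their values were seen. The members, lists, markers and alternatives were chosen with earlier results of these data known. Replicate numbers were not taken as pairs, since same-numbered arrays did not deviate together (correlations of deviations 0.05, −0.02 and 0.07). Other scalings, offsets, filters and variance priors were tried, as were array weights, blocks, the mean over a gene's probe sets and leaving arrays out. All arrays were scanned on the same day, and in the filled records the hybridization times of the Control arrays came before those of the NASH arrays, so that order and diet cannot be told apart there.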

Additional observations from a re-analysis of the deposited data

How the results depend on the processing

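No member probe set and none of the 59 other pathway genes was called by limma under any alternative run. Over all probe sets, 7 were called, against 14 as deposited, 0 with no filter, 3 with no trend in the variance prior, 18 with array weights, 3 with the wash record as a block, 16 without Control 2 and NASH 2, and 0 to 17 with 1 array left out. With the replicate number as a block 1 was called. The median difference of the member probe sets was −0.18, and −0.33 (without Control 2) to −0.10 (without NASH 3) with 1 array left out. Without Control 2 and NASH 2, which had the lowest Control and highest NASH chaperone medians, it was −0.42. By gene it was −0.26, −0.15 with the mean over each gene's probe sets, −0.52 without Control 2 and NASH 2, and −0.50 (without Control 2) to −0.21 (without Control 3) with 1 array left out. The signals as deposited moved the median of all probe sets tested to −0.17, and the members' median minus it was −0.17, against −0.16 with quantile normalization. The adjusted p of Nupr1 lay between 0.108 and 0.883 over the alternatives, with differences from −2.19 to −1.52.

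Of 656 values of single probe sets under alternatives, 35 turned sign and 621 did not. The signals as deposited gave −0.044 for Hspa5 M14050_s_at, −0.047 for Canx rc_AI010725_at and −0.11 for Ddit3. Trimmed mean scaling gave 0.018 for Calr X53363cds_s_at and 0.012 for Nfyc, and an offset of 16 gave −0.020 for Ddit3. Array weights gave −0.15 for Hsp90b1 AA685903_at, −0.058 for Hsp90b1 S69315_at, −0.18 for Canx L18889_at and rc_AA893328_at, −0.027 for Hspa5 M14050_s_at and −0.27 for Ddit3. Without Control 2 and NASH 2, Hspa5 M14050_s_at was −0.36, Canx rc_AI010725_at −0.039, Ddit3 −0.70 and Cebpg −0.026. With 1 array left out, the ranges of those that turned were −0.17 to 0.39 (Hspa5 M14050_s_at), −0.46 to 0.10 (S63521_i_at), −0.88 to 0.059 (S63521_r_at), −0.27 to 0.50 (Hsp90b1 AA685903_at), −0.068 to 0.32 (S69315_at), −0.29 to 0.77 (Canx L18889_at), −0.32 to 0.53 (rc_AA893328_at), −0.017 to 0.20 (rc_AI010725_at), −0.44 to 0.28 (Calr X53363cds_s_at), −0.57 to 0.42 (Ddit3), −0.37 to 0.13 (Mbtps2) and −0.085 to 0.10 (Nfyc). The causes were not tested.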
